A study of Mus musculus with 6 samples.

Results

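The glycolysis and lactate enzymes described here are 10 genes of mouse embryonic stem (ES) cells, taken by symbol from a table of 23420 gene rows: Slc2a1, Hk2, Gpi1, Aldoa, Tpi1, Gapdh, Pgk1, Pkm, Ldha and Ldhb. Each symbol matched 1 row, and all 10 were among the 14340 genes that passed the filter on low counts. The members were read from a test across all of those genes. The rule that chose them uses symbols and no measured value, but the list was made with earlier results of these data known. Bulk RNA was sequenced from ES cells stably transduced with a lentivirus for KBP(KK/RR), a mutant of the Kif1-binding protein that the labels call stable (replicates 4, 5 and 6), or for wild-type KBP (replicates 1, 2 and 3). Both groups were kept in self-renewing conditions and both carried a KBP virus, and cells without a virus are not analysed here. The labels do not say whether the 3 libraries of a group came from separate cultures. The p-values therefore judge group differences against the spread between these libraries, which may be technical. In bulk RNA, fewer cells of a type and less RNA per cell cannot be told apart.

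Total counts were 24300832 to 29863560 in the KBP(KK/RR) libraries and 24131743 to 32160411 in the wild-type KBP libraries. The KBP gene (2510003E04Rik in the table) averaged 56.6 ± 2.88 CPM (counts scaled to a common library size) in KBP(KK/RR) cells and 48.3 ± 1.30 CPM in wild-type KBP cells (SD, n = 3 each; edgeR adjusted p = 0.0133), with no separation of endogenous and vector transcripts. The ES cell label was checked on 8 defining genes, whose summed level was 6152 to 6364 CPM in KBP(KK/RR) and 6225 to 6284 CPM in wild-type KBP libraries, with Pou5f1 at 1435 and 1451 CPM. No ES cell gene was called. In 4 of the 8 the groups did not overlap, 2 of them higher in KBP(KK/RR), against 22.4% of all tested genes in either direction. An unadjusted edgeR p was under 0.05 in 3 of the 8, against 18.6% of all tested genes. The summed levels of markers of other cells were far lower, given for KBP(KK/RR) and then wild-type KBP libraries: 15.0 to 16.0 and 15.1 to 17.0 CPM for 4 fibroblast or feeder genes, 15.6 to 18.5 and 18.1 to 21.3 CPM for 6 primitive endoderm genes, and 53.3 to 56.7 and 44.3 to 47.7 CPM for 5 trophectoderm genes. Over 5 neural genes they were 135 to 145 and 134 to 139 CPM. Of these markers Tfap2c, a trophectoderm gene that ES cells also express, was called higher, and Pdgfra, at 1.46 CPM in KBP(KK/RR) and 2.32 CPM in wild-type KBP cells, lower. Lum, Postn and Dcn, which mark fibroblasts, had 1, 8 and 29 counts over the 6 libraries. The part of these markers in the results below was not tested.

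Glycolysis turns glucose into pyruvate in the cytosol. Glucose enters through a transporter, is phosphorylated and isomerised, and is split by aldolase into triose phosphates, from which the later enzymes make ATP, NADH and pyruvate. Lactate dehydrogenase reduces pyruvate to lactate and so returns the NAD+ that the Gapdh step needs. ES cells are known for a high rate of glycolysis even when oxygen is present, and several of these genes are textbook targets of the hypoxia-inducible factors and of Myc.

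The promoter windows of the 3 members called higher and of Hk2, which had the lowest fold change of the 10, are shown because the members lie in 1 pathway and known regulators of it bind short DNA words. Each window holds 300 bases around a RefSeq transcription start on GRCm38.p6, most of them upstream, 5′ to 3′ on the gene's strand, and capitals mark every ACGTG or GCGTG on either strand, the core bound by hypoxia-inducible factors. They lie at chr7:46845554-46845853 and chr7:46846832-46847131 (plus strand) for the 2 starts of Ldha, chr6:142507908-142508207 (minus) for Ldhb, chr6:124814109-124814408 (minus) for Tpi1 and chr6:82774405-82774704 (minus) for Hk2.
Ldha: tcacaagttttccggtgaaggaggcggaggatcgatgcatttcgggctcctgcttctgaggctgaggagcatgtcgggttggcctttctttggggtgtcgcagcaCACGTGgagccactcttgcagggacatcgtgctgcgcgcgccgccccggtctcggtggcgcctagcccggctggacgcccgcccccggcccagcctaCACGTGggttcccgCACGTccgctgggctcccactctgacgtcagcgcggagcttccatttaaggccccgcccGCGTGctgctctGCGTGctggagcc
Ldha, downstream start: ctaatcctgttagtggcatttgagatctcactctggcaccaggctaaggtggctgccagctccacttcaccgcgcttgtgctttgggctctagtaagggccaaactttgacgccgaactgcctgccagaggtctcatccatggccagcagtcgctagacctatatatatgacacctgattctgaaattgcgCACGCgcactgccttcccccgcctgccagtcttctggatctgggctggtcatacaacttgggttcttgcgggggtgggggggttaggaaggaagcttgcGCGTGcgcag
Ldhb: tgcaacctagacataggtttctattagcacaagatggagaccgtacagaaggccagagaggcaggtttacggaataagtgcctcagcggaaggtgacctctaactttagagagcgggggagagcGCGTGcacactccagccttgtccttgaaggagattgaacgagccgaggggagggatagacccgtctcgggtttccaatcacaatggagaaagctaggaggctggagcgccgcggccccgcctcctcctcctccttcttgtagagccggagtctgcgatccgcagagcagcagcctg
Tpi1: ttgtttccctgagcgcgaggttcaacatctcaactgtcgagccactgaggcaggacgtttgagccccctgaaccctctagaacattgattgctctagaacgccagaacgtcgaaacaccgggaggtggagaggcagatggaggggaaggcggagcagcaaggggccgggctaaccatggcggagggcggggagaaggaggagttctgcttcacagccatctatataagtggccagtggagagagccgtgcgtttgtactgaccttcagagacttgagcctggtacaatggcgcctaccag
Hk2: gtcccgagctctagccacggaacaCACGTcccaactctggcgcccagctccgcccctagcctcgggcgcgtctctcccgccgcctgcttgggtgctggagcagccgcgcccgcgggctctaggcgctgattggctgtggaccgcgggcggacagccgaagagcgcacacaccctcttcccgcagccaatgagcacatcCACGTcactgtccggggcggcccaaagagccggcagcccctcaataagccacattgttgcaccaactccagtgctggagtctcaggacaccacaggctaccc
The upstream Ldha window held 7 matches, of which 4 came from 2 copies of CACGTG, a word that Myc binds and that contains ACGTG on each strand, and the downstream one held 2. The Ldhb window held 1 match and the Tpi1 window 0, while the Hk2 window held 2. All 10 members matched the RefSeq table, with 14 windows in all, and 10 of these windows, from 8 genes, held at least 1 match. Tpi1 and Gpi1 had none in these windows. The Aldoa windows at chr7:126799205-126799504 and chr7:126799129-126799428 overlap and hold the same match. Of 32851 windows of the same length over all genes, not matched for GC content, 43.8% held a match. A match is a run of letters and not a bound site, and the windows of the members called higher held 7 and 2 (Ldha), 1 (Ldhb) and 0 (Tpi1) of them.

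Transcripts of the glucose entry steps did not pass the test in either direction. Slc2a1 (chromosome 4, 119108711 to 119137983 on GRCm38) encodes the glucose transporter GLUT1. It had 751, 812 and 799 CPM in KBP(KK/RR) replicates 4, 5 and 6, against 753, 799 and 869 CPM in wild-type KBP replicates 1, 2 and 3. The groups overlapped, and wild-type KBP replicate 3 lay above every KBP(KK/RR) library. The log2 fold change of -0.04 (SE 0.05) missed the threshold (edgeR adjusted p = 0.728), and as a change of -2.43% it had a 95% interval of -8.78% to 4.37%. Without wild-type KBP replicate 3 its sign turned to 0.02.

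Hk2 (chromosome 6, 82725025 to 82774454) encodes hexokinase 2, which traps glucose in the cell as glucose 6-phosphate. It had 436, 409 and 428 CPM in KBP(KK/RR) libraries, against 451, 469 and 471 CPM in wild-type KBP libraries. Every KBP(KK/RR) library was below every wild-type KBP library, a pattern that no other member showed. Its log2 fold change of -0.13 (SE 0.04) missed the threshold over all genes (edgeR adjusted p = 0.0725), and it passed without KBP(KK/RR) replicate 4 (adjusted p = 0.0382). Gpi1 (chromosome 7, 34201330 to 34230336), the isomerase of the next step, had 588, 621 and 610.3 CPM in KBP(KK/RR) cells and 584, 569 and 613 CPM in wild-type KBP cells. These groups overlapped (log2 fold change 0.04, SE 0.04, edgeR adjusted p = 0.583), and the 95% interval of the change ran from -2.55% to 9.03%.

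Of the 10 genes, Tpi1, Ldhb and Ldha, 3 in all, were called higher (adjusted p under 0.05) and 0 lower. Over all 14340 genes, 151 were called higher, a background of 1.05%, and 297 lower, 2.07%. With upper-quartile scaling those counts were 235 and 205, and with a trend on transcript length and GC content removed 311 and 388. The median log2 fold change of the 10 members was 0.13, against -0.002 over all tested genes and 0.02 over the 1102 genes at least as abundant as the lowest member, and 8 of the 10 had a positive sign, against 49.2% and 58.6%. The members were chosen with earlier results of these data known, so these counts describe the list and do not test it.

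**Figure D1:**
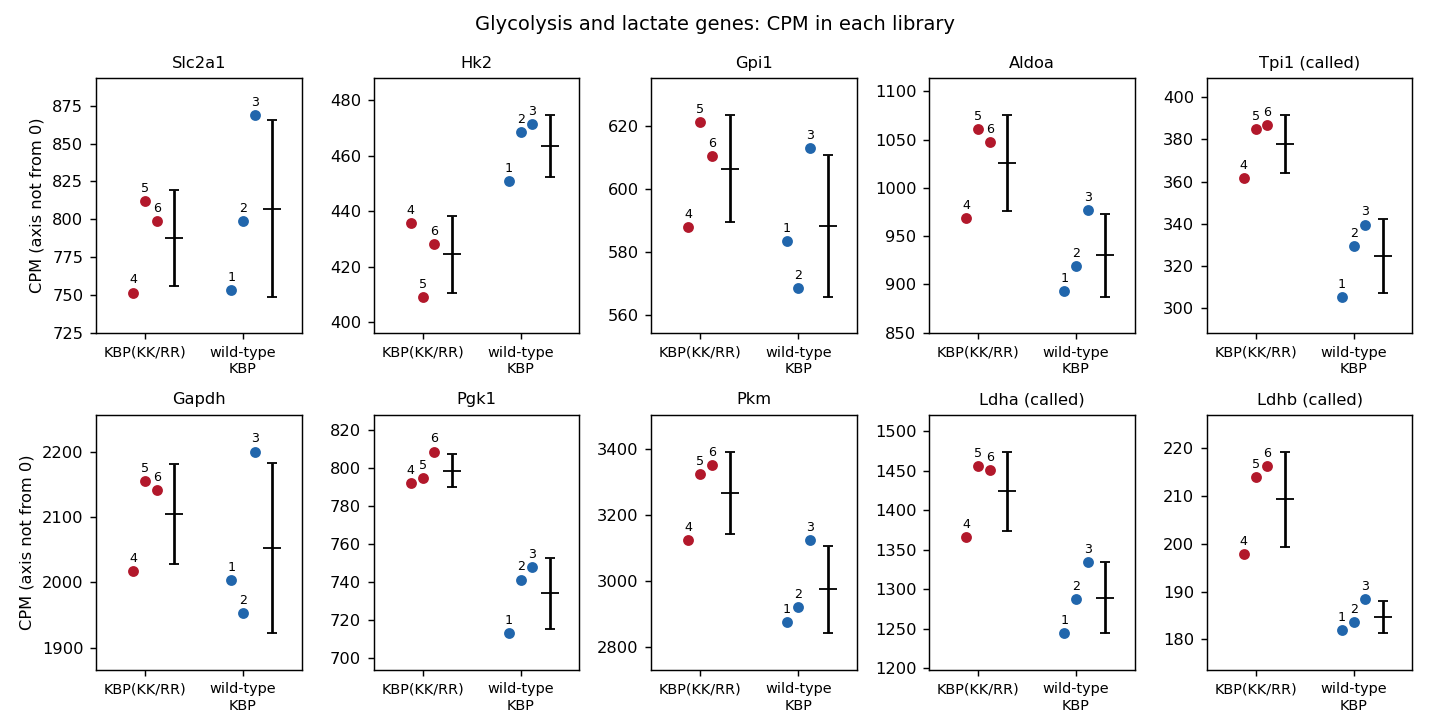
CPM of each of the 10 genes in each library, with KBP(KK/RR) replicates 4 to 6 in red and wild-type KBP replicates 1 to 3 in blue, numbered, and the mean ± SD of each group in black (each vertical axis has its own range and does not start at 0). The red points of Tpi1, Pgk1, Ldha and Ldhb all lie above the blue ones, those of Hk2 lie below, and the other 5 genes overlap.

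In the middle of the pathway, aldolase splits fructose 1,6-bisphosphate and triose phosphate isomerase interconverts the products. Tpi1 (chromosome 6, 124810586 to 124814296), the isomerase gene, had the largest change of the 10. Its levels were 362, 385 and 387 CPM in KBP(KK/RR) libraries, against 305, 329 and 339.6 CPM in wild-type KBP libraries. The lowest KBP(KK/RR) library stood above the highest wild-type KBP library. Tpi1 rose by 16.3% (95% interval 9.33 to 23.7), a log2 fold change of 0.22 (SE 0.04, edgeR adjusted p = 0.00572), and it missed the threshold when KBP(KK/RR) replicate 6 was left out (adjusted p = 0.0671).

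Aldoa (chromosome 7, 126795234 to 126800751), the main aldolase gene of most cells, had 969, 1061 and 1048 CPM in KBP(KK/RR) cells and 894, 919 and 977 CPM in wild-type KBP cells. KBP(KK/RR) replicate 4 lay just below wild-type KBP replicate 3, so the groups overlapped by that library. The log2 fold change of 0.14 (SE 0.04) missed the threshold (edgeR adjusted p = 0.0647). It passed without KBP(KK/RR) replicate 4 (adjusted p = 0.0130), without wild-type KBP replicate 3 (0.0227), with upper-quartile scaling (0.0405), with no filter on low counts (0.0104) and with the length and GC trend removed (0.00317).

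The enzymes of the second stage, which yields ATP and NADH, differed among themselves. Gapdh (chromosome 6, 125161715 to 125166467) makes the NADH of glycolysis and is often taken as a normaliser in qPCR. It had 2018, 2155 and 2141 CPM in KBP(KK/RR) cells and 2003, 1954 and 2200.2 CPM in wild-type KBP cells. The groups overlapped, and wild-type KBP replicate 3 was the highest of all 6 libraries. Its log2 fold change of 0.04 (SE 0.04) missed the threshold (edgeR adjusted p = 0.690), with a 95% interval of -3.50% to 8.96%.

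Pgk1 (chromosome X, 106187100 to 106203699) encodes phosphoglycerate kinase, the enzyme of the first ATP-making step. Its 792, 795 and 808 CPM in KBP(KK/RR) cells stood against 713, 741 and 748 CPM in wild-type KBP cells. The groups did not overlap, and the KBP(KK/RR) libraries lay close together. The log2 fold change of 0.12 (SE 0.04) missed the threshold (edgeR adjusted p = 0.0700). It passed with upper-quartile scaling (adjusted p = 0.0390) and with no filter on low counts (0.0442).

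Pkm (chromosome 9, 59656368 to 59679375) encodes the pyruvate kinases M1 and M2, splice forms that these gene counts do not separate. It was the most counted of the 10 genes, with 3123, 3325 and 3352 CPM in KBP(KK/RR) cells and 2875, 2920.5 and 3125 CPM in wild-type KBP cells. KBP(KK/RR) replicate 4 lay just under wild-type KBP replicate 3, and otherwise the KBP(KK/RR) libraries were the higher ones. The log2 fold change of 0.14 (SE 0.04) missed the threshold (edgeR adjusted p = 0.0540). It passed without KBP(KK/RR) replicate 4 (adjusted p = 0.0188), without wild-type KBP replicate 3 (0.0104), with scaling by library totals (0.0444) or the upper quartile (0.0323), with no filter (0.00773) and with the length and GC trend removed (2.90e-04).

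Both lactate dehydrogenase subunit genes rose. Ldha (chromosome 7, 46841475 to 46855627) encodes the M subunit, known for favouring the step from pyruvate to lactate, and its 2 promoter windows above held 7 and 2 matches. It had 1367, 1456 and 1451 CPM in KBP(KK/RR) cells, against 1245, 1288 and 1335 CPM in wild-type KBP cells, and the groups did not overlap. Ldha rose by 10.5% (95% interval 4.59 to 16.7), a log2 fold change of 0.14 (SE 0.04, edgeR adjusted p = 0.0401). It missed the threshold when KBP(KK/RR) replicate 5 was left out (adjusted p = 0.136) or 6 (0.208), when wild-type KBP replicate 1 was (0.154) or 2 (0.147), with limma-voom (0.0562) and with limma on the normalized signal (0.0889).

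Ldhb (chromosome 6, 142490249 to 142507957) encodes the H subunit, which is typical of heart muscle. It was the least counted of the 10 genes, with 198, 214 and 216 CPM in KBP(KK/RR) cells, against 182, 184 and 189 CPM in wild-type KBP cells. Again the groups did not overlap, and the wild-type KBP libraries lay close together. Ldhb rose by 13.3% (95% interval 6.69 to 20.3), a log2 fold change of 0.18 (SE 0.04, edgeR adjusted p = 0.0188). It missed the threshold when KBP(KK/RR) replicate 5 was left out (adjusted p = 0.0776) or 6 (0.141), and when wild-type KBP replicate 1 was (0.0595) or 2 (0.0886).

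Tpi1, Pgk1, Ldha, Ldhb and Hk2 separated the libraries by group. The groups did not overlap in these 5 of 10 members, of which 4 were higher in KBP(KK/RR), against backgrounds of 22.4% in either direction and 11.8% for higher. Among the 1102 genes at least as abundant as Ldhb, 30.4% did not overlap in either direction, 20.2% did not overlap and were higher, and 13 genes, 1.18%, were called higher. Before adjustment 7 members had a p under 0.05, against 18.6% of all tested genes and 28.2% of those 1102. Of all tested genes 3.12% were called in either direction. DESeq2 called the same 3 members higher and 0 lower.

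**Figure D2:**
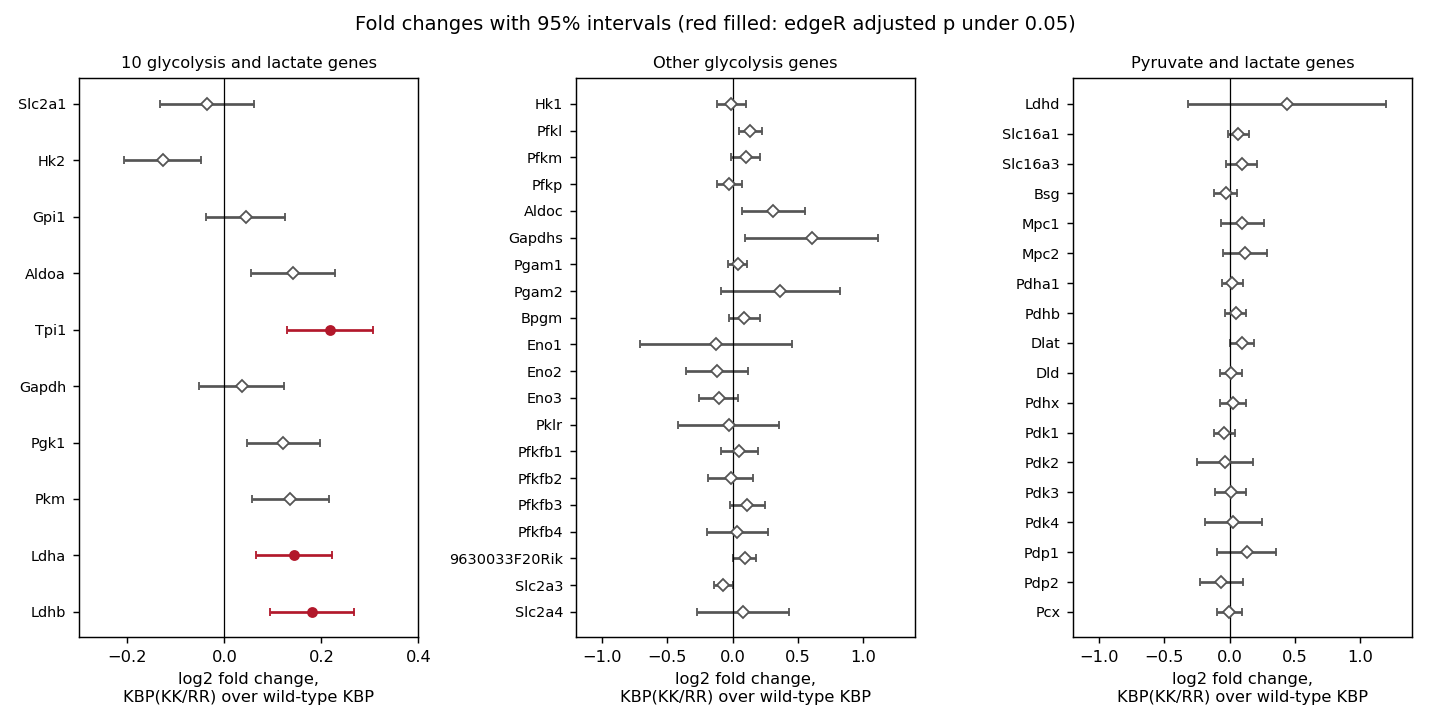
Log2 fold changes, KBP(KK/RR) over wild-type KBP, as points with 95% intervals for the 10 genes (left), the 20 other glycolysis genes tested (middle, where 9630033F20Rik is Tigar) and the 18 pyruvate and lactate genes tested (right), with a wider axis in the last 2 panels and red filled points for an edgeR adjusted p under 0.05. Tpi1, Ldhb and Ldha, at 0.22, 0.18 and 0.14, are the called members, and Hk2, at -0.13, is the lowest.

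The 10 genes moved with each other from library to library inside each group. KBP(KK/RR) replicate 4 was the lowest of its group in 9 of 10 members, the exception being Hk2, against 37.4% of all tested genes. Wild-type KBP replicate 3 was the highest of its group in 10 of 10, against 36.6% of all tested genes and 44.6% of those at least as abundant as Ldhb. The median member deviated from its group's mean by -0.06 (log2) in KBP(KK/RR) replicate 4 and by 0.06 in wild-type KBP replicate 3. These are the libraries without which Aldoa and Pkm passed the threshold, and the part of library composition in the results was not tested. The members took 1.06%, 1.13% and 1.12% of all counts in KBP(KK/RR) replicates 4, 5 and 6, and 1.003%, 1.02% and 1.08% in wild-type KBP replicates 1, 2 and 3. The spread between replicates, a coefficient of variation of 1.1% to 7.23%, was larger than the 0.331% to 1.41% that counting alone would give.

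**Figure D3:**
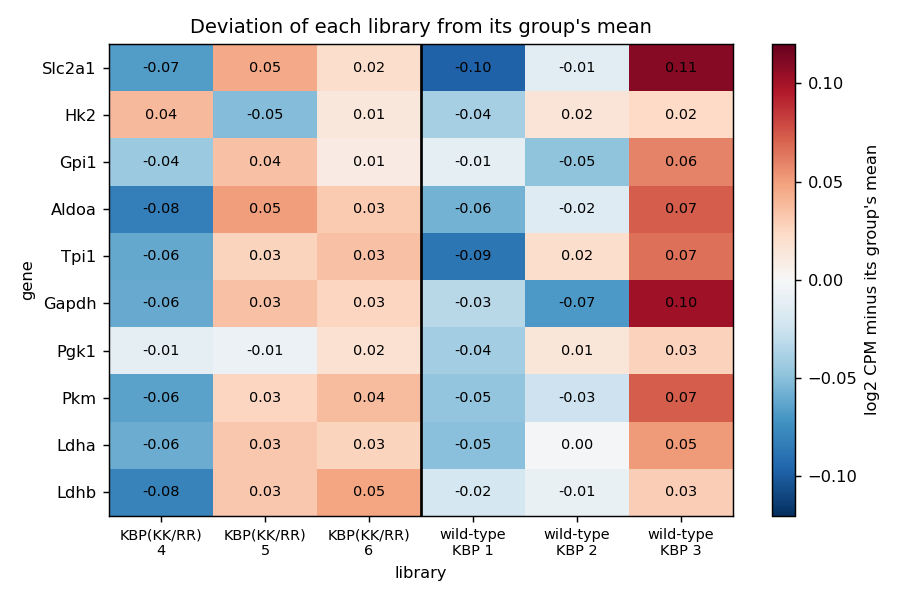
Heat map of each library's log2 CPM minus the mean of its group (colour) for the 10 genes (rows) in KBP(KK/RR) replicates 4 to 6 and wild-type KBP replicates 1 to 3 (columns). The column of KBP(KK/RR) replicate 4 is negative for all genes but Hk2, and that of wild-type KBP replicate 3 is positive for all 10.

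Set against the sum of the 10 genes in the same library, the balance between members differed too. Hk2 made up 3.86% ± 0.24 of the members' counts in KBP(KK/RR) and 4.48% ± 0.14 in wild-type KBP libraries (SD, n = 3 each), and Slc2a1 made up 7.14% ± 0.078 and 7.79% ± 0.24. On the other side stood Tpi1, at 3.43% ± 0.015 and 3.14% ± 0.093, and Pkm, at 29.6% ± 0.19 and 28.7% ± 0.022. Of the 10 shares 9 did not overlap between the groups, a count with no background over all genes to set beside it. Those of Slc2a1, Hk2, Gpi1 and Gapdh were smaller in every KBP(KK/RR) library than in any wild-type KBP library. Those of Aldoa, Tpi1, Pkm, Ldha and Ldhb were larger, and only the share of Pgk1 overlapped. As CPM, by contrast, the groups overlapped for Slc2a1, Gpi1, Gapdh, Aldoa and Pkm, and those of Pgk1 did not. Shares of 1 sum move against each other, and these are a description with no test.

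Ratios between sister genes showed which isoform the cells mainly express. On the log2 scale the Ldhb to Ldha ratio of CPM was -2.77 ± 0.02 in KBP(KK/RR) and -2.80 ± 0.03 in wild-type KBP libraries (SD, n = 3 each), a difference of 0.04 (exact two-sided permutation p = 0.2, adjusted over 4 ratios 0.4). The Hk2 to Hk1 ratio was 3.50 ± 0.04 in KBP(KK/RR) and 3.62 ± 0.07 in wild-type KBP libraries, and these groups did not overlap (difference -0.12, exact permutation p = 0.1, adjusted 0.4). Hk2 therefore had far more counts than Hk1, the ubiquitous hexokinase, in both groups. The Slc2a1 to Slc2a3 ratio was -1.08 ± 0.07 and -1.12 ± 0.06 (difference 0.04, exact permutation p = 0.6, adjusted 0.6), with Slc2a3, a glucose transporter of high affinity, the more counted gene. Aldoa to Aldoc, the brain-type aldolase, was 7.38 ± 0.08 and 7.57 ± 0.20 (difference -0.19, exact permutation p = 0.3, adjusted 0.4). With 3 libraries against 3 the smallest possible p is 0.1, so none of the 4 could pass.

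Per kilobase of transcript the order of levels was led by Gapdh, with 1482 ± 53.3 CPM per kilobase in KBP(KK/RR) and 1445 ± 91.8 in wild-type KBP cells (SD, n = 3 each). Pkm followed with 1343 ± 51.5 and 1223 ± 54.7, and Ldha with 785 ± 27.6 and 710 ± 24.8. Aldoa (662 and 600 CPM per kilobase) and Pgk1 (438 and 402) came next. Slc2a1 (242 and 248), Tpi1 (235 and 202) and Gpi1 (210 and 204) lay close to each other, and Tpi1 and Gpi1 stood in a different order in the 2 groups. Ldhb (160 and 142) and Hk2 (77.0 and 84.1) were lowest.

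Several members have near-identical copies in the genome, and how reads matching more than 1 place were counted is not given in the sources used here. Of the 50-base windows of its longest coding transcript, 82.5% of Gapdh were also found in the transcripts of other genes, 222 in number, of which 213 are pseudogenes. The share was 68.0% for Pgk1, 34.4% for Pkm, 27.0% for Ldhb, 25.3% for Gpi1, 16.6% for Ldha and 13.5% for Aldoa. It was 7.51% for Tpi1, 1.74% for Slc2a1 and 0 for Hk2. The part of shared windows in the fold changes was not tested. The levels of Gapdh and Pgk1 are the least certain. Tpi1 overlaps Spsb2 by 34 bases, Gapdh overlaps Iffo1 by 68 bases and Aldoa overlaps Fam57b by 3084 bases, all on the opposite strand, and the strand setting of the counting is not given. Those partners had 730, 3279 and 249 counts over all 6 libraries.

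**Figure D4:**
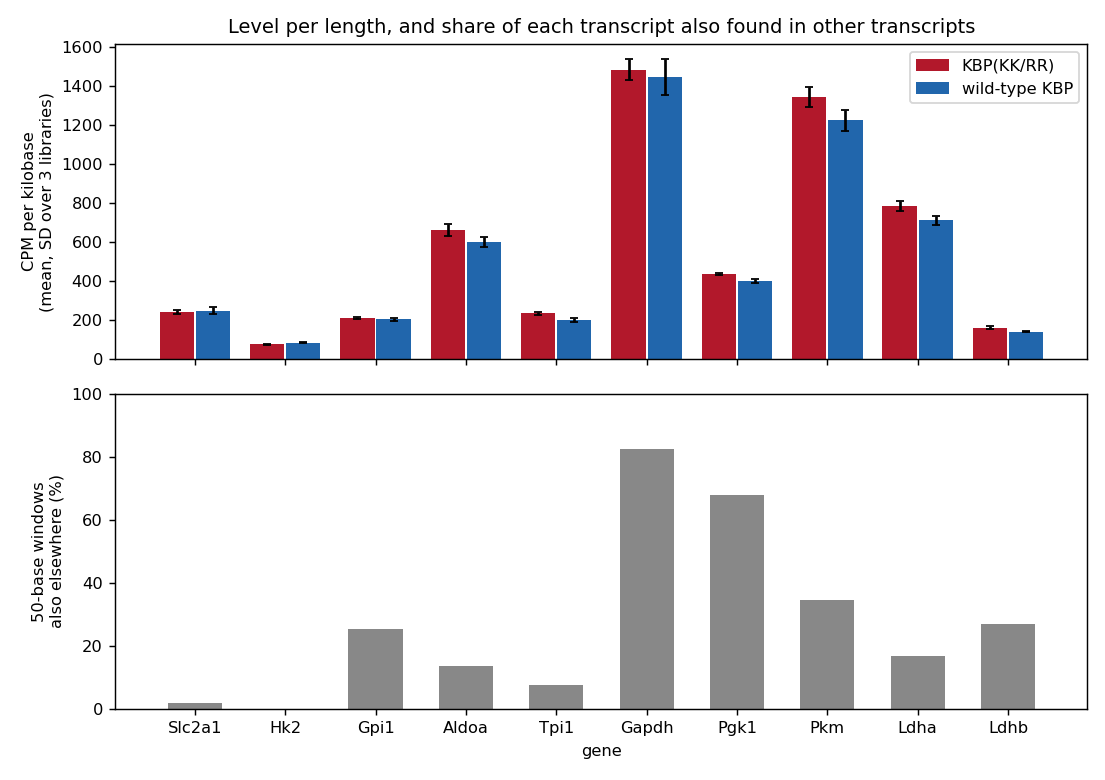
Upper panel, CPM per kilobase of transcript for the 10 genes (bars from 0, mean with SD over 3 libraries, KBP(KK/RR) left of wild-type KBP). Lower panel, the percentage of each transcript's 50-base windows that other genes' transcripts also contain, 82.5% for Gapdh and 0 for Hk2.

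The other genes of glycolysis gave no call. Of 25 listed, 20 were tested and 0 were called in either direction, where 3.12% of all tested genes were called. Of the 20, 12 had a positive sign, against 49.2% of all tested genes, and the median log2 fold change was 0.05. In 4 of the 20 the groups did not overlap, 2 of them higher in KBP(KK/RR). The backgrounds were 22.4% in either direction and 11.8% for higher. Pfkl, the liver-type phosphofructokinase, averaged 265 ± 10.9 CPM in KBP(KK/RR) and 241 ± 11.2 CPM in wild-type KBP cells (SD, n = 3 each), a log2 fold change of 0.13 (SE 0.04, edgeR adjusted p = 0.0885). Pfkl passed without KBP(KK/RR) replicate 4 and without wild-type KBP replicate 3, the same libraries as for Aldoa and Pkm. Aldoc (log2 fold change 0.31, edgeR adjusted p = 0.146) and Gapdhs, the sperm form of Gapdh (0.61, adjusted p = 0.186), had few counts. Slc2a3 averaged 1668 ± 12 and 1752 ± 54.0 CPM (log2 fold change -0.07, edgeR adjusted p = 0.286), and Hk1 37.4 ± 0.22 and 37.7 ± 1.88 CPM (-0.01, adjusted p = 0.943). The level of Slc2a3 was lower in every KBP(KK/RR) library than in any wild-type KBP library.

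The genes that handle pyruvate and lactate outside the dehydrogenase itself gave no call either. Of 20 listed, 18 were tested and 0 were called, where 3.12% of all tested genes were called in either direction. Of the 18, 13 had a positive sign, against 49.2% of all tested genes, and the median log2 fold change was 0.03. In 3 of the 18 the groups did not overlap, all 3 higher in KBP(KK/RR), against 11.8% of all tested genes for higher. Dlat, the acetyltransferase of pyruvate dehydrogenase, averaged 84.5 ± 0.81 and 79.2 ± 1.66 CPM in KBP(KK/RR) and wild-type KBP cells (log2 fold change 0.10, edgeR adjusted p = 0.243). The lactate carriers Slc16a1 (0.07, adjusted p = 0.378) and Slc16a3 (0.09, adjusted p = 0.397) came next by p. Over the 38 genes of both lists 5 had an unadjusted p under 0.05 in edgeR, against 18.6% of all tested genes. DESeq2, which gave an adjusted p for 25 of the 38, called 0. The pentose phosphate genes, which branch off after hexokinase, gave 0 calls of 7 tested with a median of 0.04. Of the 7, 1 had an unadjusted edgeR p under 0.05, also against backgrounds of 3.12% called and 18.6% under 0.05. The edgeR adjusted p was 0.267 for Rpe (log2 fold change 0.09), 0.410 for Rpia (0.13) and 0.480 for Pgls (-0.12). DESeq2 gave an adjusted p for 6 of the 7 and called 0.

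Of 16 genes around hypoxia-inducible factors, all tested, 2 rose and 0 fell, where 1.05% of all tested genes were called higher and 2.07% lower. The median log2 fold change of the 16 was 0.06, against -0.002 over all tested genes. Bnip3, a mitophagy receptor, averaged 38.1 ± 1.6 CPM in KBP(KK/RR) and 29.2 ± 1.91 CPM in wild-type KBP cells (SD, n = 3 each), a log2 fold change of 0.38 (SE 0.06, edgeR adjusted p = 5.71e-04). Ddit4, an inhibitor of mTORC1 signalling, averaged 62.5 ± 3.46 and 53.1 ± 0.55 CPM (log2 fold change 0.23, SE 0.05, edgeR adjusted p = 0.0107). Epas1, which encodes HIF-2alpha, had a log2 fold change of -0.11 (edgeR adjusted p = 0.268).

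Likeness of log2 CPM over the 6 libraries, each gene centred on its mean, was ranked among genes with a mean log2 CPM of 3 or more. Symbols with the form of clone, pseudogene or structural RNA names, and all symbols starting with Rn, were left out of the ranking. The genes nearest to Ldha in it were Pkm, Pfkl and Aldoa, with root mean square differences of 0.0148, 0.0158 and 0.0162 log2 units. Nearest to Tpi1 were Avpi1 (0.0118), Trp73 (0.0260) and Sdc4 (0.0260). Nearest to Ldhb were Ckmt1 (0.0115), Evl (0.0190) and Klf2 (0.0220). The 3 genes nearest to Ldha were thus glycolysis genes, and those nearest to Tpi1 and Ldhb were not among the members or the glycolysis list.

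**Figure D5:**
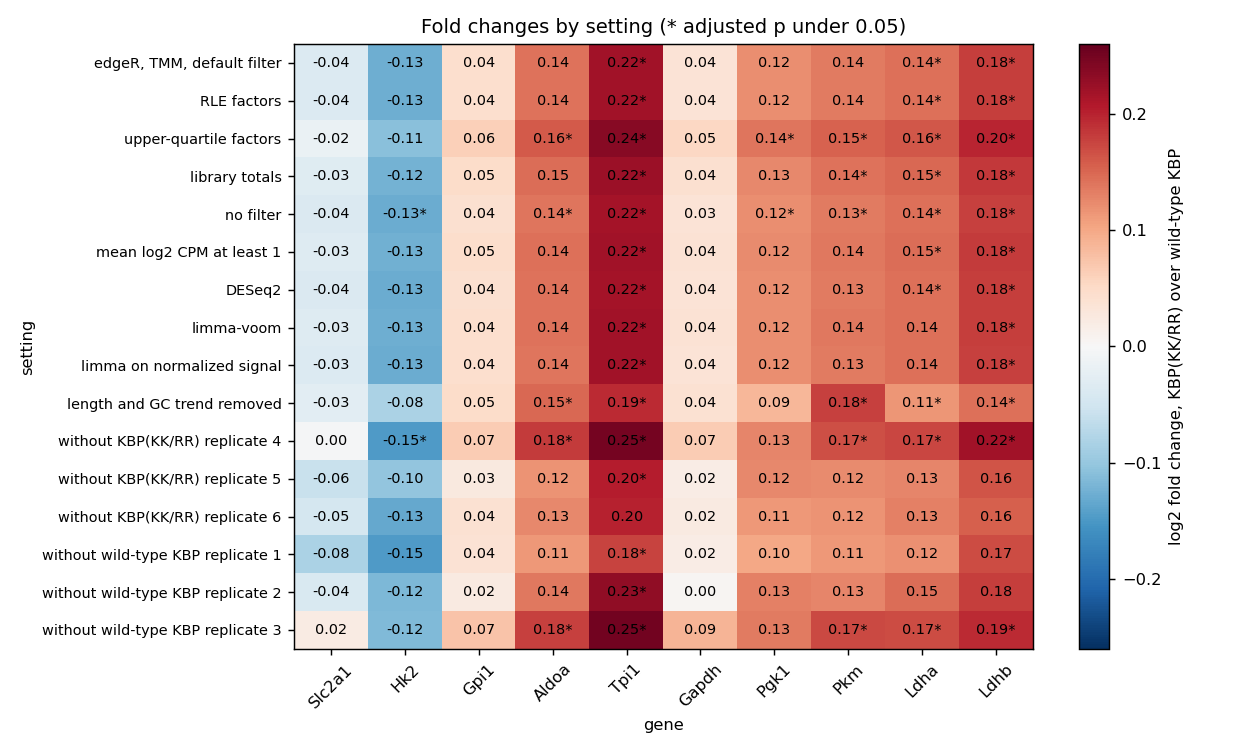
Log2 fold changes, KBP(KK/RR) over wild-type KBP, of the 10 genes (columns) under each scaling, filter, test or left-out library (rows), with an asterisk for an adjusted p under 0.05. Tpi1 carries an asterisk in every row but the one without KBP(KK/RR) replicate 6, where no gene does.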

How the data were processed

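Per the labels' protocols, ribosomal RNA was removed with RiboZero and libraries were made with ScriptSeq v2. The submitters' processing notes name bcl2fastq, TopHat, HTSeq and DESeq2, with the builds mm10 and GRCm38. No source used here gives the annotation or the strand and multiple-mapping settings. The authors deposited raw read counts per gene and a normalized signal, by its values each count divided by 1 factor per library. Each factor was taken as the median ratio of counts to signal. Multiplied back, 100% of the signal values came out as whole reads (tolerance 0.01), and 0 differed from the counts. The same test on these identical values could only call the same 151 genes higher and 297 lower.

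The counts were tested with edgeR 4.0.16 under R 4.3.3 (TMM, filterByExpr, robust quasi-likelihood), adjusted by Benjamini-Hochberg over 14340 genes and called under 0.05. Log2 fold changes set KBP(KK/RR) over wild-type KBP. The SE was derived from the fold change and its F statistic, and intervals are 95%. CPM uses TMM-scaled totals. Library totals of 24131743 to 32160411 counts limit low-count genes most. Lengths and shared windows come from GENCODE M21 on GRCm38, and promoters from RefSeq GRCm38.p6. The procedure was tested on simulated data. Alternatives were other scalings, filters, DESeq2 1.42.0, limma 3.58.1 (pseudocount 1 on the signal), a length and GC trend, and leaving out each library. Replicates of a group differed by more than sampling noise (chi-square per degree of freedom 2.70 to 7.17).

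The members and lists were chosen with earlier results of these data known. Named genes are the members, the called genes of each pathway list or up to 3 with the smallest p, and the partners of the ratios. Also named are the 3 genes most like each called member whose mean log2 CPM was 3 or more, within the symbols kept for that ranking. Pou5f1, Tfap2c, Lum, Postn and Dcn are markers, and genes overlapping a member are named for their position.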

Additional observations from a re-analysis of the deposited data

How the results depend on the processing

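Over all genes, those called higher (151) were 235 with upper-quartile factors, 284 with no filter, 71 with DESeq2, 78 with limma-voom, 82 with limma on the normalized signal, 311 with the length and GC trend removed, and 37 to 198 with 1 library left out. Those called lower (297) were 682 with no filter, 192 with limma-voom, 197 with limma on the signal, and 85 to 569 with 1 library left out.

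Members called higher (3) were 6 with upper-quartile factors, 6 with no filter, 5 with the trend removed and 4 with library totals. Those called higher were 2 with limma-voom, 2 with limma on the normalized signal, and 0 to 5 with 1 library left out. They were 5 without KBP(KK/RR) replicate 4 or wild-type KBP replicate 3, 1 (Tpi1) without KBP(KK/RR) replicate 5 or wild-type KBP replicate 1 or 2, and 0 without KBP(KK/RR) replicate 6. Members called lower (0) were 1, Hk2, with no filter, and 0 to 1 with 1 library left out. Other pathway genes called higher (0) were 1, Pfkl, with no filter and 1 with the trend removed, and 0 to 1 with 1 library left out. Slc2a1, at -0.0828 to 0.0206 (log2 fold change) with 1 library left out, reversed to 0.0206 without wild-type KBP replicate 3, and no other member or ratio changed sign. The causes were not tested. The scalings moved the median of all genes by at most 0.02 (log2). No paired analysis was made because the labels give no pairing of libraries between the groups.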

Other observations

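Enolase, the step between phosphoglycerate mutase and pyruvate kinase, was nearly absent under its usual symbol: Eno1 had 57 counts over the 3 KBP(KK/RR) libraries and 61 over the 3 wild-type KBP libraries. Gm5506, now named Eno1b, which was chosen after its values were seen, had 33350 and 31300 counts. The transcripts of other genes contain 72.2% of the 50-base windows of Eno1. Gm5506 averaged 398 ± 18.6 CPM in KBP(KK/RR) and 383 ± 32.8 CPM in wild-type KBP cells (SD, n = 3 each), a log2 fold change of 0.06 (edgeR adjusted p = 0.612). From which copy these reads came was not tested.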
